A study of Homo sapiens with 4 samples.

Results

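Transcripts whose gene symbols end in -DT, for divergent transcript, were compared between HCT116 cells without and with type II topoisomerases, and each was set beside the gene named before its suffix, called its partner here. The set takes every -DT gene with at least 40 reads summed over the 4 libraries, which left 425 gene IDs (424 symbols, since TNFRSF10A-DT has 2 IDs that share a partner) of 589 -DT IDs and of 60656 IDs in the files. Members were selected on these summed reads and not on the difference between the groups. Of the -DT IDs left out, 48 had no read and 116 had 1 to 39. The members nearest above the boundary were ITPR1-DT with 40 reads, CBR4-DT with 41 and DLX2-DT with 43, and those nearest below it were ADCY6-DT and BEND7-DT with 39 and C1orf21-DT with 38.

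Most mammalian promoters of CpG-rich sequence start RNA polymerase II in both directions, toward the gene and away from it, from separate core promoters that flank a shared nucleosome-depleted region. The RNA made away from the gene is usually ended early, because its sequence holds many polyadenylation signals and few U1 snRNP sites, and it is degraded by the nuclear exosome, so steady-state RNA holds little of it. Some of these upstream transcripts are long and spliced and are annotated as non-coding RNA genes named after the gene they start beside. Labelling of newly made RNA catches such transcripts before they decay. Topoisomerases TOP2A and TOP2B pass one DNA duplex through another and so relieve the supercoils that polymerases leave ahead of and behind themselves, and divergent polymerases draw on the same stretch of DNA.

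The assay is TTchem-seq, in which RNA made during a pulse of 4-thiouridine is fragmented, purified and sequenced. HCT116 is a human colorectal carcinoma line. The DKO group (2 libraries) is the HCT116 TOP2A mAID line, whose endogenous TOP2A carries a mini auxin-inducible degron, with TOP2B -/- in addition, and it received 500 µM auxin for 8 h to degrade TOP2A. The WT group (2 libraries) is labelled wildtype, its protocol names the parent line HCT116 TOP2A mAID, and no auxin is recorded for it. Both groups were synchronised in G1 by 28 h of 2 µM palbociclib, and the pulse of 4-thiouridine was 1 mM for 30 min. Auxin, loss of the enzymes and differences between the cell lines therefore cannot be told apart. The labels do not say that replicates were separate cultures, so p-values measure only the spread between these libraries. As the RNA is bulk, fewer cells making a transcript and less of it per cell cannot be told apart either.

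Counted reads came to 51142867 to 53777749 per library, and the members together took 2782 and 2673 CPM (counts scaled to the library total) in DKO against 2765 and 2810 CPM in WT. TOP2B, the deleted gene, had 7852 and 8000 reads in DKO against 7264 and 7303 (log2 fold change 0.07, edgeR adjusted p = 0.223), and TOP2A, degraded as protein, had 8770 and 8955 against 6519 and 6246 (0.42, edgeR adjusted p = 3.46e-15). RNA counts thus do not check either loss. Of 9 epithelial markers EPCAM, KRT8, KRT18, KRT19 and CDH1 were abundant in every library, summed levels of the list were 459 and 471.8 CPM in DKO and 505.3 and 534.3 in WT, and 5 of 8 tested were called lower in DKO, where edgeR called 21.1% of all tested genes lower. Of these calls DESeq2 made 4, and only that of CDH1 held in each fit that left out a library. The part of these markers in the results on members was not tested. The 9 markers of other cell types summed to 4.19 to 5.15 CPM, with COL1A2 at 0 and none called.

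The 2 starts of a pair lay close together. For the 306 pairs with both starts in the RefSeq promoter table, all 306 were on opposite strands, the member started a median of 155.5 bases upstream of the partner (quartiles 89.25 and 277.5), and 291 lay within 1000 bases of it. In 16 pairs the member started inside the partner. In 8 the starts were over 10000 bases apart, among them GARS1-DT at 16956, LEMD1-DT at 34002, RFX3-DT at 142085 and RB1-DT at 172748, so that these names do not mark a shared promoter in this annotation. The annotated span of a member overlapped that of its partner in 68 of 399 cases and another gene in 146, and 201 overlapped no gene. The strand setting of the counting is not given, so reads of overlapping genes cannot be told apart.

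The DNA between the starts is shown for 6 pairs, each with a different combination of calls for member and partner. Eligible were only members named below for the largest rises, falls or ratio changes or for opposite calls, with starts 30 to 250 bases apart. Of these the pair with most member reads was taken for each combination. Pairs whose partner rose while the member fell or was not called are not among the 6. Each stretch holds the bases that lie between the starts, from RefSeq on GRCh38.p14, printed 5′ to 3′ on the strand of the partner, so the partner starts after its right end and the member starts, on the other strand, before its left end. Capitals mark matches, on either strand, to the motifs searched. These were the GC box GGGCGG, the CCAAT box, the TATA box TATAAA, the E-box CACGTG, the hypoxia-factor core GCGTG, the ETS-type site CCGGAAGT, the core of the NRF1 site TGCGCA, the polyadenylation signal AATAAA and the splice donor GGTAAG. No motif of these contains another. The stretches are chr10:120851180-120851361 on the plus strand for WDR11 (182 bases), chr17:5191869-5192006 on the minus strand for ZNF594 (138), chr1:229508342-229508429 on the minus strand for NUP133 (88), chr1:219173789-219173877 on the plus strand for LYPLAL1 (89), chr11:86955396-86955620 on the minus strand for FZD4 (225) and chr16:70346748-70346902 on the plus strand for DDX19A (155).
WDR11-DT fell, WDR11 not called: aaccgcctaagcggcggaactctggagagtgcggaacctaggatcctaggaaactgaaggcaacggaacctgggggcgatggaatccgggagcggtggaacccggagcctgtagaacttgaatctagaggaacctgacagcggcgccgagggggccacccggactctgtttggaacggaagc
ZNF594-DT fell, ZNF594 fell: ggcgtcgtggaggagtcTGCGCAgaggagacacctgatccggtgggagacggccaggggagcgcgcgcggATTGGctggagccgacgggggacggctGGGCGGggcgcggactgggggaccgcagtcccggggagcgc
NUP133-DT rose, NUP133 not called: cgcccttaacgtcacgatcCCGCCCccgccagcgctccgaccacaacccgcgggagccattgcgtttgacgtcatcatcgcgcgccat
LYPLAL1-DT rose, LYPLAL1 rose: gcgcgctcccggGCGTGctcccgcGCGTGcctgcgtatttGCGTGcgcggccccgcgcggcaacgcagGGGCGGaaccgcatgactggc
FZD4-DT not called, FZD4 fell: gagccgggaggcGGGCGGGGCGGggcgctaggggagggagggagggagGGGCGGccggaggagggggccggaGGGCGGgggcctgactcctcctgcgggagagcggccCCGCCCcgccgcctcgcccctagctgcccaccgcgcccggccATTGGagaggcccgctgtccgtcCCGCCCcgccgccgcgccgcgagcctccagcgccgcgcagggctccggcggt
DDX19A-DT rose, DDX19A fell: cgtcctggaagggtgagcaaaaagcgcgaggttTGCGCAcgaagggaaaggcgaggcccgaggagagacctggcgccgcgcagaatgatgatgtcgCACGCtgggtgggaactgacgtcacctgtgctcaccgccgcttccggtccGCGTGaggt

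These stretches were rich in G and C, from 61.0% between the starts of WDR11 to 83.6% for FZD4, and they held 14 to 32 CG dinucleotides each. FZD4 had 7 motif matches, 6 of them GC boxes, and WDR11 had none of the motifs. No TATAAA was found in any of the 6. High GC content was also found over the whole set. In windows of 300 bases around the start (250 before to 50 after), the median GC content was 68.3% for 306 members and 67.7% for their partners, against 58.7% for all 35116 windows of the table, and windows of a pair share much of their sequence. The median ratio of observed to expected CG was 0.904, 0.912 and 0.579 in the same order. GGGCGG was found in 76.5% of member windows, 75.2% of partner windows and 45.0% of all, TGCGCA in 21.2%, 24.5% and 8.24%, CCGGAAGT in 11.1%, 11.8% and 4.14%, and GCGTG in 59.8%, 60.1% and 36.5%. CCAAT stood at 32.7% of member, 42.5% of partner and 34.6% of all windows, and CACGTG at 7.19%, 7.19% and 7.26%. TATAAA was rarer (3.92%, 4.90% and 11.5%), as was AATAAA (6.54%, 8.17% and 17.4%), while GGTAAG stood at 7.19%, 4.25% and 8.02%. Among members that were higher, lower and not called, GGGCGG was in 72.2% of 36 windows, 68.8% of 32 and 78.1% of 237. These are matches of letters in windows of high GC content, given as a description.

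Members were mostly weaker than their partners. The median member had 398 reads over the libraries, and the range ran from 40 to 53538. Per kb of RefSeq span the median was 49.1 reads for members and 310 for partners. Among the 386 members with a span and a partner above 0 reads, the median member stood at 18.7% of its partner (quartiles 5.00% and 65.9%), and 62 stood above it. Partners were listed at 0 reads in all libraries in 13 cases, among them PPP2CA, the catalytic subunit of protein phosphatase 2A, JTB and RNASEH1. As every cell uses PPP2CA, a listed 0 is not read as a silent gene. SLC12A2-DT had the most reads (53538), over a span that also holds CCDC192.

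**Figure D1:**
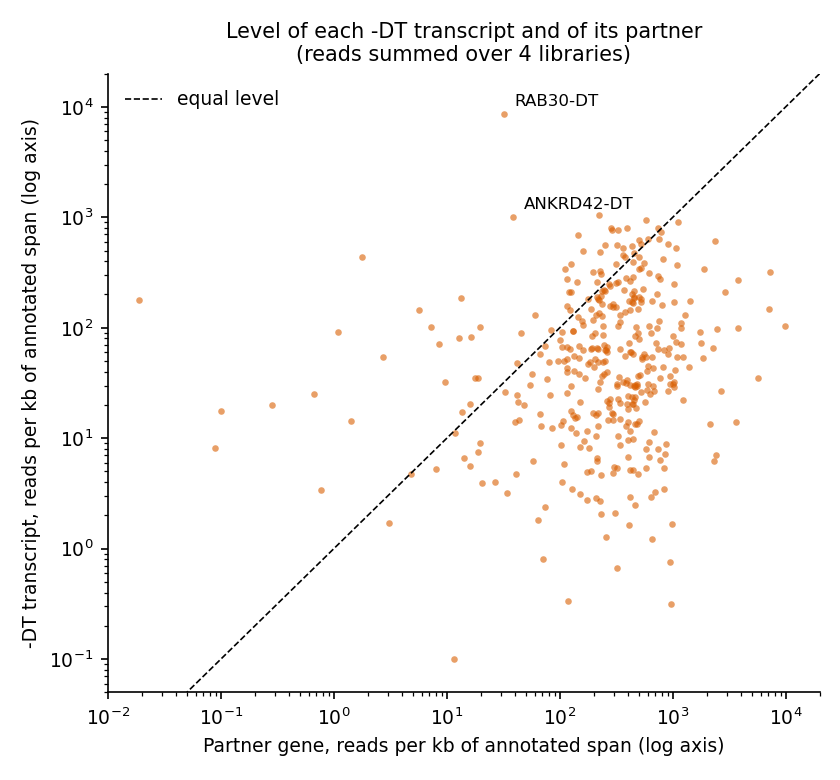
Reads per kb of annotated span, summed over the 4 libraries, of each -DT transcript (vertical, log axis) against its partner (horizontal, log axis), 1 point a pair, for 386 pairs with a partner above 0. Most points lie under the dashed line of equal level, and 62 lie above it, RAB30-DT the highest of all.

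Per kb, RAB30-DT led with 8601 reads against 32.2 for RAB30, a vesicle-traffic GTPase, over a RefSeq span of 1647 bases that may be shorter than the gene model the reads were counted on. TBC1D22A-DT (1048 reads per kb), ANKRD42-DT (1001, overlapping PCF11), SUGT1-DT (937), ZKSCAN2-DT (807), SLC30A6-DT (805), TMED2-DT (802), C16orf95-DT (770) and SPOPL-DT (764) followed. Of these 9, 8 stood above their partner by more than 1.5 times, and TMED2-DT stood at 109% of TMED2. RAB30-DT had 3319 and 3263 reads in DKO against 3748 and 3836 in WT and fell, by 0.25 on the log2 scale (SE 0.050, edgeR adjusted p = 7.20e-06), and RAB30 fell by 0.32. SPOPL-DT, TBC1D22A-DT and ZKSCAN2-DT were also called lower, at -0.15, -0.32 and -0.29, and the other 5 were not called. DESeq2 called RAB30-DT but not SPOPL-DT, TBC1D22A-DT or ZKSCAN2-DT (DESeq2 adjusted p = 0.124, 0.298 and 0.066). Among all tested genes edgeR called 21.1% lower.

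A member was called changed at an edgeR quasi-likelihood adjusted p under 0.05, over all 19103 tested genes. Of 424 tested members, 54 rose and 50 fell in DKO, and 320 were not called. That is 24.5% called, where 40.1% of all tested genes were called, 19.0% higher and 21.1% lower. Among members with 40 to 399 reads 31 of 214 were called (14.5%), against 22.1% of all tested genes in that range, and among those with at least 400 reads 73 of 210 (34.8%), against 48.1%. The 2 groups did not overlap in CPM for 56.4% of members and 67.9% of all genes. The median log2 fold change was -0.01 for members, -0.01 for all genes and 0.01 for tested partners, and the called members ran from -1.08 (VPS11-DT, 13 and 5 reads against 18 and 19) to 1.51 (ITPR1-DT, 16 and 14 against 7 and 3). Of the 424 tested members, 5 were called with a rise over 2-fold and 1 with a fall over 2-fold, each with few reads. Among all tested genes 869 (4.55%) were called with a change over 2-fold. The count of called members depends on the test: DESeq2's Wald test called 12 higher and 23 lower, and 35 of the 104 calls were shared. It also depends on the WT libraries: without WT replicate 1 edgeR called 1 higher and 9 lower, without WT replicate 2 it called 8 and 15, without DKO replicate 1 it called 28 and 50, and without DKO replicate 2 it called 41 and 31. The calls kept in all 4 of these fits, and by DESeq2, were 7: RSL1D1-DT, WDR11-DT, ZNF594-DT, GATD1-DT, CAPN10-DT and RAB30-DT, which fell, and RFX3-DT, which rose. GATD1-DT, CAPN10-DT and RFX3-DT are named after their values were seen.

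The falls held the firmest values. RSL1D1-DT (ENSG00000263307.1), beside a gene for a nucleolar protein of ribosome biogenesis, had 921 and 838 reads in DKO against 1516 and 1534 in WT. It fell by 0.84 on the log2 scale (SE 0.068, edgeR adjusted p = 8.26e-25). RSL1D1 itself had 6421 and 5806 against 5912 and 6127 reads, which do not separate the groups (log2 fold change -0.03, edgeR adjusted p = 0.678). WDR11-DT (ENSG00000227165.9, chr10:120761812-120851179), beside the gene for a WD-repeat protein of vesicle tethering, had 488 and 495 reads in DKO against 796 and 842 in WT. It fell by 0.79 (SE 0.084, edgeR adjusted p = 3.33e-16), while WDR11, 183 bases away, had 6866 and 6846 against 6663 and 6801 reads. Those groups overlap once reads are scaled to the library totals, which are slightly larger in DKO. ZNF594-DT (ENSG00000261879.7, chr17:5192007-5236003, a span shared in part with SCIMP) had 561 and 552 reads against 915 and 893 and fell by 0.75. Its partner ZNF594, a zinc finger gene 139 bases away, fell less, by 0.24.

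SMC2-DT had the largest fall among members of at least 100 reads. SMC2 is a core subunit of condensin, the ring complex that compacts mitotic chromosomes together with TOP2A. SMC2-DT had 78 and 59 reads in DKO against 116 and 146 in WT and fell by 0.98 on the log2 scale (SE 0.17, edgeR adjusted p = 2.37e-07). SMC2 had 3167 and 3054 reads against 2899 and 2992 and a log2 fold change of 0.03. The call of SMC2-DT was lost without WT replicate 2 (edgeR adjusted p = 0.0645). The other falls among the 10 largest were EFCAB13-DT (-0.75, with a span that overlaps ITGB3), BAIAP2-DT (-0.71), TTC12-DT (-0.69), APCDD1L-DT (-0.65), OSER1-DT (-0.63) and CSE1L-DT (-0.63). BAIAP2, an actin-membrane scaffold, OSER1 and CSE1L, the exporter that returns importin alpha to the cytoplasm, fell too, by 0.36, 0.35 and 0.49, and TTC12, needed to build the dynein arms of cilia, had a log2 fold change of -0.08. These 10 were named among members whose groups do not overlap. Their sign was therefore all but fixed in each fit that left out a library, and all 10 kept it. Without WT replicate 1 only EFCAB13-DT, RSL1D1-DT, SMC2-DT, WDR11-DT and ZNF594-DT kept the call, and without WT replicate 2 APCDD1L-DT, CSE1L-DT and OSER1-DT kept it beside RSL1D1-DT, WDR11-DT and ZNF594-DT. DESeq2 called 8 of the 10.

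APCDD1L-DT, OSER1-DT and CSE1L-DT lie on chromosome 20. Of 6 members there, 5 were tested, 3 fell and none rose, where edgeR called 21.1% of all tested genes lower and 19.0% higher. Their median log2 fold change was -0.63, with a median of -0.47 for their partners. On the other chromosomes and at unplaced members, 54 rose and 47 fell, with a median of 0.00 for members and 0.02 for partners. Whether the number of copies of chromosome 20 differs between the lines was not tested. A fit without chromosome 20 genes called 50 members higher and 48 lower.

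The largest rises were of weakly read members. EN2-DT, about 1 kb from the homeobox gene EN2 (1011 bases), had 67 and 58 reads in DKO against 30 and 36 in WT and rose by 0.87 on the log2 scale (SE 0.23, edgeR adjusted p = 0.00110). SLC25A28-DT (chr10:99620845-99621918, beside the gene of mitoferrin-2, which brings iron into mitochondria) had 59 and 55 reads against 30 and 31 and rose by 0.85 (edgeR adjusted p = 0.00220). NUP133-DT, 89 bases from the gene of a scaffold protein of the nuclear pore, had 61 and 46 against 32 and 30 and rose by 0.73. Both DKO libraries lay above both WT libraries in each case, which the selection of these rises required. SND1-DT had 121 and 126 reads against 75 and 70 (0.72, edgeR adjusted p = 1.61e-04), beside the gene of a Tudor-domain nuclease, SND1, at 0.11. LYPLAL1-DT had 173 and 161 against 103 and 107 (0.62, edgeR adjusted p = 1.84e-04). SLC20A1-DT (0.69), NEK2-DT (0.64), E2F5-DT (0.64), PRDM10-DT (0.60) and CPEB2-DT (0.60) complete the 10. All 10 kept their sign when a library was left out, which the selection on groups that do not overlap all but fixed. Each lost its call when WT replicate 1 was left out, and DESeq2 called only LYPLAL1-DT and SND1-DT. RFX3-DT, 142085 bases from RFX3, a transcription factor of ciliary genes, had more reads, 1468 and 1420 against 1024 and 1060, and rose by 0.42 (SE 0.067, edgeR adjusted p = 2.21e-08), with RFX3 at -0.05.

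**Figure D2:**
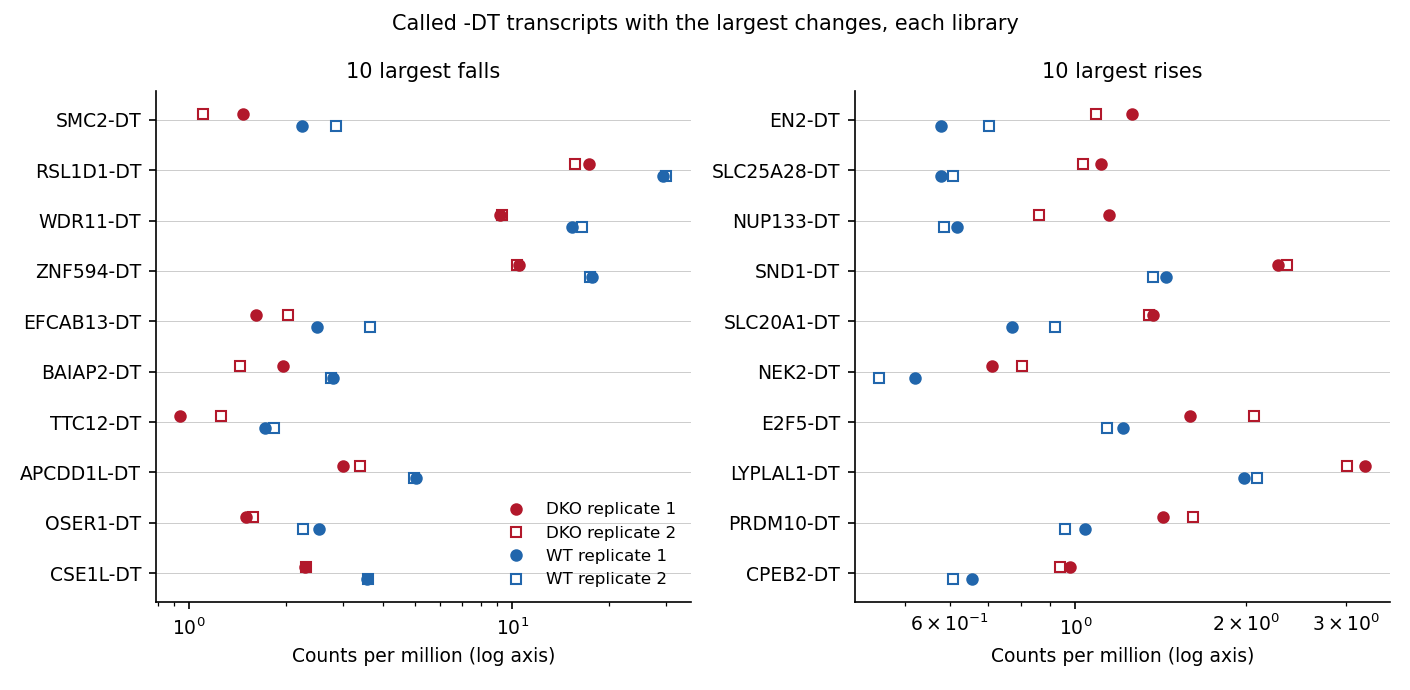
CPM (log axis) in each library for the 10 largest falls (left) and the 10 largest rises (right) among called members of at least 100 reads whose groups do not overlap, with DKO red, WT blue, replicate 1 filled and replicate 2 open. RSL1D1-DT, WDR11-DT and ZNF594-DT sit at higher CPM in every library than any of the rises shown.

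Members and partners changed together only loosely, and so did other neighbouring genes. Of 401 pairs with both genes tested, 28 rose together and 14 fell together, 42 in all or 10.5%, where both genes of 15.0% of 14953 pairs of neighbouring tested genes were called in the same direction. In 11 pairs (2.74%) the calls were opposite, against 5.26% of neighbouring pairs and 3.33% of other pairs that start head to head within 1000 bases. In 46 pairs the member was called and the partner was not, in 127 the partner was called and the member was not, and in 175 neither was. Across the 401 pairs the log2 fold changes of member and partner had a Pearson r of 0.279 and a Spearman rho of 0.271, and across the 191 pairs whose weaker gene had at least 400 reads r was 0.402. The same r was 0.416 over 1171 pairs of other genes that start head to head within 1000 bases and 0.216 over 13782 other neighbouring pairs. With at least 400 reads in the weaker gene it was 0.400 over 842 head-to-head pairs and 0.224 over 8172 other neighbours. At that depth both genes were called in the same direction in 15.7% of -DT pairs, 17.3% of head-to-head pairs and 18.7% of other neighbours. They were called in opposite directions in 4.71%, 4.16% and 6.80% in the same order. All points share the same 4 libraries, genes are not replicates, and the difference between these correlations was not tested.

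The change of the ratio of member to partner reads within a library was tested directly with limma, adjusted over 15792 pairs. It was called in 82 of 401 pairs, or 20.4%, with 34 ratios higher and 48 lower in DKO. The share was 35.5% of neighbouring pairs and 28.4% of those that start head to head. With 40 to 399 reads in the weaker gene, 33 of 210 ratios were called (15.7%), against 23.6% of neighbouring pairs. With at least 400 reads 49 of 191 were called (25.7%), against 43.1% of neighbouring pairs and 32.9% of head-to-head pairs. The median size of the ratio change was 0.21 on the log2 scale, against 0.18 for head-to-head pairs and 0.26 for other neighbours. With at least 400 reads in the weaker gene these medians were 0.155, 0.155 and 0.194. In 156 of the -DT pairs the 95% confidence interval of the ratio change lay within 0.5 of no change. Of the 46 pairs with only the member called, 30 had a called ratio, and of the 127 with only the partner called, 27 had one. For the remaining pairs a call in 1 gene alone does not show that the 2 differ. Ratio calls numbered 74 and 57 without DKO replicate 1 and 2 and 46 and 43 without WT replicate 1 and 2, and 29 of the 82 were kept in all 4 fits.

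**Figure D3:**
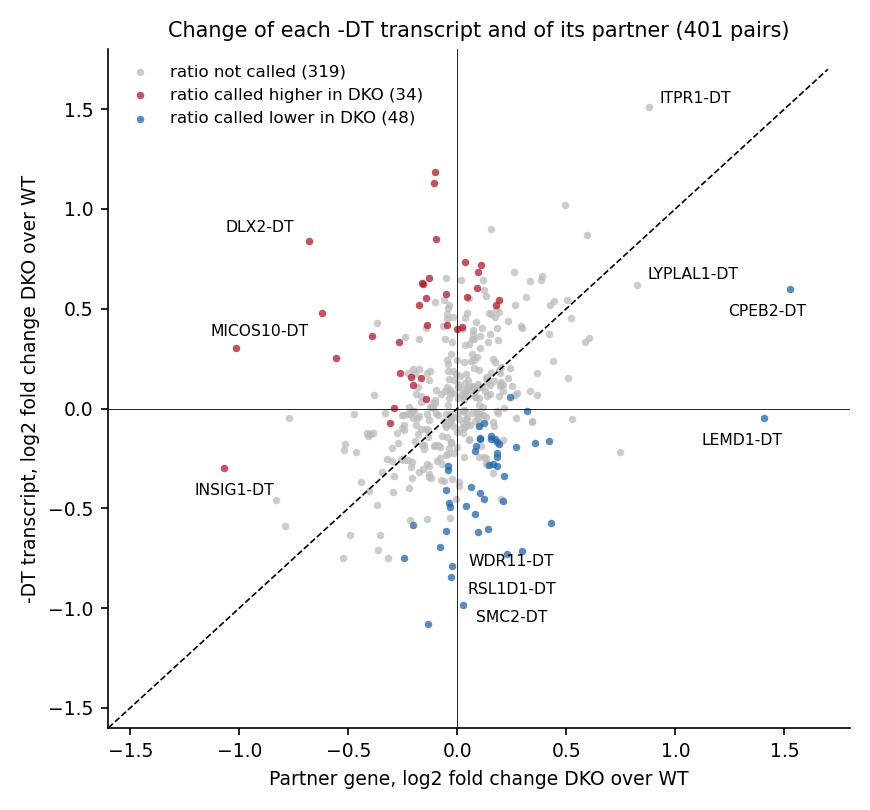
Log2 fold change, DKO over WT, of each -DT transcript (vertical) against its partner (horizontal) for 401 pairs, with the 34 pairs whose ratio was called higher in red and the 48 called lower in blue. Points on the dashed line changed equally, and the cloud is taller than it is wide.

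Among the pairs whose ratio changed most, WDR11-DT against WDR11 fell by 0.76 (95% interval -0.93 to -0.59, limma adjusted p = 1.39e-10) and RSL1D1-DT against RSL1D1 by 0.82 (-0.97 to -0.67, limma adjusted p = 1.34e-13). SMC2-DT against SMC2 fell by 1.01 (-1.35 to -0.67). SLC25A28-DT rose against SLC25A28 by 0.94 (0.48 to 1.40). The ratio of CPEB2-DT to CPEB2, a regulator of cytoplasmic polyadenylation and translation, fell by 0.93 although CPEB2-DT rose, since CPEB2 rose from 572 and 511 reads in WT to 1532 and 1702 in DKO, by 1.53. In MICOS10, which shapes the cristae of mitochondria, PINX1, a telomerase inhibitor, and FZD4, a Wnt and Norrin receptor, the partner fell, by 1.02, 0.62 and 0.56. MICOS10-DT had 32 and 28 reads against 26 and 21, PINX1-DT 54 and 40 against 41 and 24, and FZD4-DT 217 and 226 against 176 and 183, so that the members were no lower in DKO, and their ratios rose by 1.31, 1.13 and 0.80. These calls held in every fit that left out a library, except PINX1-DT without WT replicate 2 (limma adjusted p = 0.0710). TOMM20L-DT (-1.001) and IKBKB-DT (0.78) lost the ratio call in each of the 4 fits. SUCLG2-DT, 85 bases from the gene of a succinyl-CoA ligase subunit and named after its values were seen, had 176 and 168 reads against 262 and 248 while SUCLG2 had 32340 and 32886 against 29422 and 29519, a ratio change of -0.71 (-0.95 to -0.48).

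In 11 pairs the member and the partner were called in opposite directions, and all 11 ratios were called. Choosing pairs by opposite calls in the same libraries all but fixed the ratio calls, so they add no support. In 3 the member rose. DDX19A-DT (chr16:70315640-70346747, overlapping DDX19B) had 311 and 309 reads in DKO against 241 and 225 in WT, and DDX19A, an RNA helicase of messenger RNA export, had 104 and 105 against 145 and 120. RBM12B-DT had 278 and 284 against 160 and 219 and RBM12B, an RNA-binding protein gene, 12232 and 11170 against 12787 and 12759. LARP4B-DT had 53 and 67 against 41 and 38. In the other 8 the member fell and the partner rose. GARS1-DT had 1808 and 1695 reads against 1921 and 1950, and GARS1, glycyl-tRNA synthetase, 11426 and 10996 against 8944 and 9000, but their annotated starts are 16956 bases apart. EIF2AK3-DT had 50 and 57 against 82 and 75, with EIF2AK3, the PERK kinase of the unfolded protein response, at 0.14. CAMSAP1-DT had 295 and 299 against 428 and 358, with CAMSAP1, which binds microtubule minus ends, at 0.12. KPNB1-DT (-0.24, importin beta-1 at 0.18), GALNT7-DT (-0.29), HEATR6-DT (-0.28), SH3TC2-DT (-0.28) and RIPK2-DT (-0.18) were the others. The spans of KPNB1-DT, HEATR6-DT and DDX19A-DT overlap NPEPPS, WFDC21P and DDX19B, and those of EIF2AK3-DT, GALNT7-DT and LARP4B-DT overlap their partners. The partner changes were small, 0.12 to 0.39 in size. The ratio call held in all 4 fits that left out a library for every pair of these except LARP4B-DT, whose call held in 1, while the separate calls did not: the count of opposite pairs was 0 without either WT library, 6 and 4 without a DKO library and 4 by DESeq2.

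**Figure D4:**
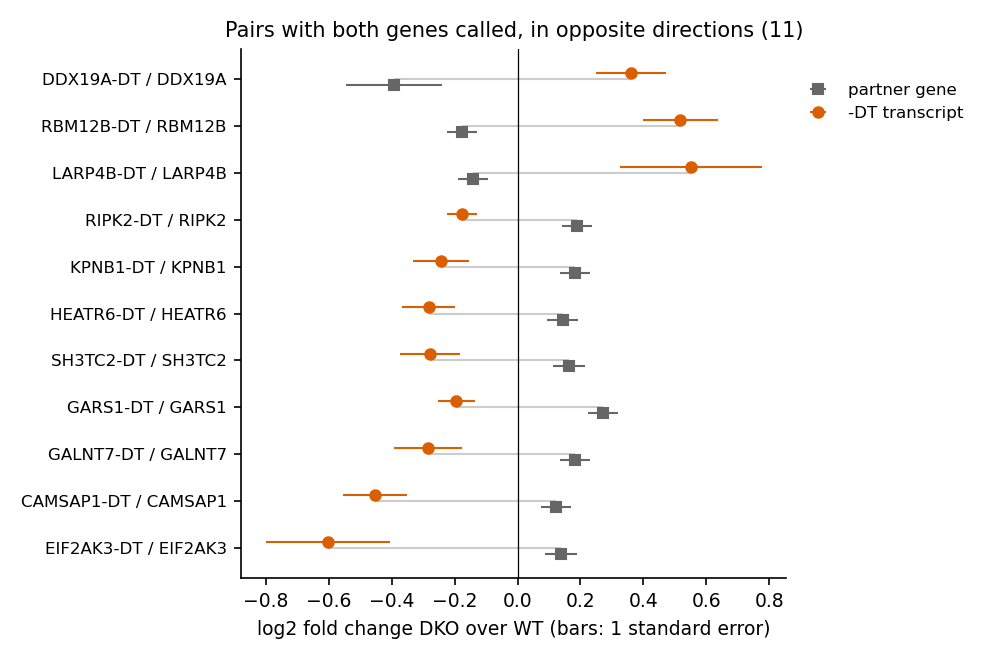
Log2 fold change, DKO over WT, of -DT transcript (orange circle) and partner (grey square) with 1 standard error for the 11 pairs called in opposite directions, from edgeR. In the upper 3 pairs the member lies right of zero and the partner left of it, and in the other 8 the sides are swapped.

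Pairs whose partner moved by over 0.5 on the log2 scale are described apart for rises and falls of the partner, and the difference between the 2 directions was not tested. In the 10 pairs whose partner rose so far (median 0.60) the median member stood at 0.40, 6 members rose and none fell. Of these 6 rises DESeq2 called only that of LYPLAL1-DT. For scale, edgeR called 19.0% of all tested genes higher and 21.1% lower. LYPLAL1, a lysophospholipase-like hydrolase, rose by 0.83 with LYPLAL1-DT at 0.62. NQO1, a quinone reductase, rose by 0.61, and NQO1-DT had 335 and 293 reads against 229 and 246 (0.35). ITPR1, a calcium release channel, rose by 0.88 with ITPR1-DT, and PRKACB (0.52) and NEMP2 (0.50) with PRKACB-DT (0.45) and NEMP2-DT (0.54). LEMD1 rose by 1.41 while LEMD1-DT, 34002 bases away, had 20 and 23 reads against 26 and 17. In the 9 pairs whose partner fell so far (median -0.68) the median member stood at -0.05, and 1 member fell. This was KLF2-DT (58 and 48 against 75 and 79, -0.59), beside the transcription factor gene KLF2 (-0.79). DESeq2 did not call its fall (DESeq2 adjusted p = 0.191). INSIG1, which holds the sterol sensor in the endoplasmic reticulum, fell by 1.07, from 4317 and 4147 reads in WT to 2105 and 2065 in DKO, while INSIG1-DT had 89 and 65 reads against 90 and 93 (-0.30, not called). Its ratio rose by 0.76 (0.41 to 1.10). The ratio was called in 5 of these 9 pairs and in 2 of the 10. In each of these the member changed less than the partner or had the other sign. Choosing pairs by a large change of the partner favours that direction, so it is not a result about members.

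**Figure D5:**
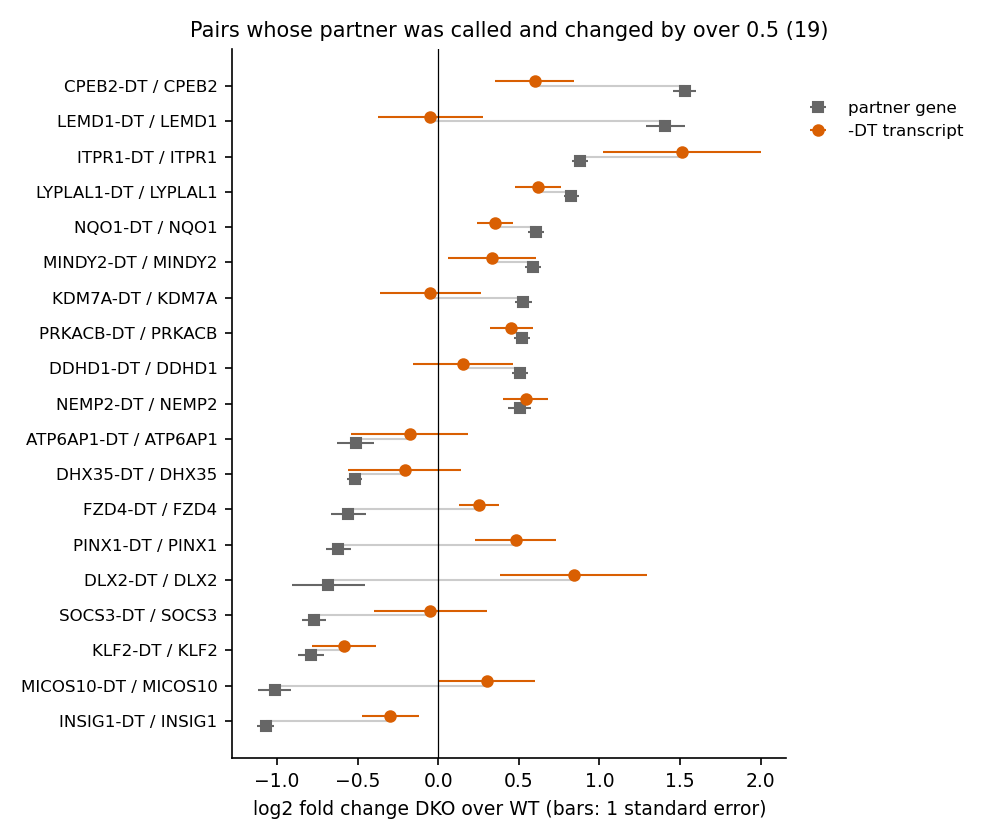
Log2 fold change, DKO over WT, of -DT transcript (orange circle) and partner (grey square) with 1 standard error for the 19 pairs whose partner was called and changed by over 0.5, ordered by partner. In the upper 10 the members lie mostly to the right of zero, and in the lower 9 they scatter around it.

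Counts were also taken by the distance between the starts, with no test between the bins. With starts within 300 bases, 26 of 227 tested members rose and 24 fell, where 19.0% of all tested genes rose and 21.1% fell. There 40 of 215 ratios were called (18.6%), against 35.5% of neighbouring pairs without a -DT gene and 28.4% of those starting head to head. With starts over 300 and up to 1000 bases apart 6 of 63 rose and 6 fell, with 8 of 58 ratios called (13.8%). Beyond 1000 bases 4 of 15 rose and 2 fell, with 6 of 15 ratios called. For 119 tested members no start distance was annotated, and of these 18 rose and 18 fell, with 28 of 113 ratios called (24.8%). Members whose span overlapped no annotated gene had 41 of 192 ratios called (21.4%). Sorted by what the partner does, from symbol patterns, ratios were called in 13 of 35 pairs beside RNA processing and translation genes, 9 of 25 beside genes of mitochondria and metabolism, 10 of 41 beside transporters and membrane traffic genes, 7 of 40 beside signalling, cytoskeleton and adhesion genes, 5 of 26 beside ubiquitin and proteasome genes, 4 of 17 beside chromatin and transcription regulators, 3 of 11 beside zinc finger gene families, 2 of 15 beside other transcription factors, 2 of 19 beside cell cycle, replication and repair genes and 27 of 172 beside unclassified genes. The highest share among classes, 37.1% beside RNA processing and translation genes, lies near the 35.5% of neighbouring pairs. Among the 13 are DPH6-DT (754 and 810 reads against 559 and 587, with DPH6, of diphthamide synthesis, at 0.00) and SNRPF-DT (-0.34, with SNRPF, a spliceosomal Sm protein, at 0.21), both named after their values were seen. No class is called different from the rest.

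Members beside genes of SMC complexes and their regulators did not move as 1 group. Beside SMC2-DT, WAPL-DT fell (243 and 238 reads against 307 and 304, -0.40), next to the gene that releases cohesin from DNA (WAPL at 0.06), and its ratio fell by 0.46 (-0.68 to -0.24). NIPBL-DT rose with NIPBL, the cohesin loader (0.19 for each), and their ratio changed by 0.00 (-0.16 to 0.16). SMC5-DT had 1023 and 1005 reads against 869 and 907 (0.14), STAG1-DT 95 and 107 against 112 and 87 and NSMCE1-DT 253 and 246 against 234 and 227, and none of these was called. Of the 6, NIPBL-DT lost its call in 3 of the 4 fits that left out a library and WAPL-DT in 2.

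Genes of the machinery that ends, processes and degrades such transcripts were listed too: the nuclear exosome and its adaptors, the cleavage and polyadenylation factors, NELF, Integrator and U1 snRNP. Of 55 listed, 52 were tested, 6 rose and 13 fell, with a median log2 fold change of -0.02, where edgeR called 40.1% of all tested genes in either direction. All 4 NELF subunits, which hold paused polymerase, were lower: NELFA (2360 and 2378 reads against 2799 and 2756, -0.28), NELFB (-0.28), NELFCD (-0.53) and NELFE (-0.26). XRN2, the exonuclease that ends transcription, fell by 0.47 and CSTF1, of the cleavage stimulation factor, by 0.69, and these and NELFCD lie on chromosome 20. EXOSC1 (-0.42), EXOSC2 (-0.18) and EXOSC6 (-0.19) of the exosome fell, with 6 other tested EXOSC genes not called. PCF11, a termination factor, rose by 0.34, PPP1R10 by 0.26, SNRPC of U1 snRNP by 0.21 and MTREX, the exosome's helicase, by 0.14. DESeq2 called 5 of the 6 rises and 8 of the 13 falls, without NELFE and EXOSC6. In the 4 fits that each left out a library, 5 calls held throughout, those of NELFA, NELFCD, XRN2, CSTF1 and PCF11. The calls of NELFB and EXOSC1 held in 3 fits, those of NELFE, EXOSC2, PPP1R10, SNRPC and MTREX in 2 and that of EXOSC6 in 1. These are nascent RNA levels of the genes and were not tied to any member by a test.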

How the data were processed

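TTchem-seq libraries of HCT116 cells, 2 DKO and 2 WT by their titles, were analysed. The authors deposited raw read counts per Ensembl gene ID, 1 library a file. The submitters' processing notes name hg38, STAR 2.7.3a and featureCounts 1.6. Strand setting, gene set version and the counting over exons or whole genes are not given in sources used here. No spike-in was used, so values are relative to library totals. A symbol was found for 42058 IDs, a partner in the files for 424 of 425 members, and a RefSeq span (GRCh38.p14) for 399.

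Genes were tested with edgeR 4.0.16 (R 4.3.3), by its quasi-likelihood F-test on group alone, with TMM factors (0.992 to 1.005) and filterByExpr (minimum count 10, minimum total 15). Calls are at p under 0.05 after Benjamini-Hochberg adjustment. Replicates had a biological coefficient of variation of 3.46%, so at these depths members of few reads are limited by counting. Each pair's log2 ratio per library was tested with limma 3.58.1 on voom weights, over -DT pairs and neighbouring tested genes together. Scripts were tested on simulated data. Intervals are 95% intervals of the fits.

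The members, gene lists and classes were chosen with earlier results of these data known. Members are named by rule: the 10 largest rises and falls among called members of at least 100 reads whose groups do not overlap, the 10 largest called ratio changes and the 10 largest opposite pairs at that depth, the 10 with most reads per kb (1 of them is not reported here), the 3 nearest each side of 40 reads, and those beside cohesin, condensin, SMC5/6 or topoisomerase genes. Sequences and starts are from RefSeq, and 323 members had a promoter entry. Alternatives were other size factors, filters, DESeq2 1.42.0, a replicate block, each library left out, chromosome 20 left out, limma-trend, a minimum of 100 reads and pairs without overlap. Figures used matplotlib 3.10.9.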

Additional observations from a re-analysis of the deposited data

How the results depend on the processing

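The counts of calls depended on the filter, the test and the WT libraries, and the ratio calls on the filter most. With no filter beyond 1 read, edgeR called 10 members higher and 15 lower, 0 pairs in opposite directions and 21 ratios, against 54, 50, 11 and 82. DESeq2 called 12, 23 and 4 pairs in opposite directions. With a library left out, 1 to 41 members were higher, 9 to 50 lower, 0 to 6 pairs opposite and 43 to 74 ratios called. Of the 104 called members 10 were also called without WT replicate 1, 23 without WT replicate 2, 68 without DKO replicate 1 and 69 without DKO replicate 2. The cause was not tested.

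Medians near 0 changed sign. The median log2 fold change of members, -0.0087, was 0.026 with upper quartile factors, which scale all genes, and ran from -0.049 to 0.058 with a library left out. The median difference of member minus partner, 0.021, was -0.0081 with at least 50 reads in 2 libraries and -0.027 to 0.077 with a library left out.

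The labels do not say whether libraries with the same replicate number were handled as a pair. Deviations of same-numbered libraries correlated at 0.011, which does not settle the design. With the replicate block 54 members were higher, 51 lower and 81 ratios called, and the ratio changes of CBR4-DT (0.020) and NIPBL-DT (-0.00031) became -0.0016 and 0.00046. No call of a named member was changed by the block.

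With a library left out, 15 values of named members changed sign, none of which was called with all 4 libraries. For log2 fold changes the ranges were -0.15 to 0.041 for ANKRD42-DT, -0.33 to 0.018 for C16orf95-DT, -0.69 to 0.37 for CBR4-DT, -0.14 to 0.030 for SLC30A6-DT, -0.19 to 0.15 for STAG1-DT and -0.037 to 0.24 for SUGT1-DT. For ratio changes they were -0.20 to 0.015 for ANKRD42-DT, -0.50 to 0.54 for CBR4-DT (-0.38 without DKO replicate 1), -0.53 to 0.11 for EFCAB13-DT, -0.040 to 0.62 for EN2-DT, -0.091 to 0.091 for NIPBL-DT, -0.029 to 0.17 for SLC30A6-DT, -0.34 to 0.12 for STAG1-DT, -0.015 to 0.21 for SUGT1-DT and -0.31 to 0.0049 for TBC1D22A-DT.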
